A study of Mus musculus with 10 samples.

Results

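The SCUBE genes, *Scube1*, *Scube2* and *Scube3*, were followed in RNA from the anterior fontanelle (AF) of the mouse at E18.5. The 3 genes were taken by their symbols out of the 23080 genes of the count table, and were selected on earlier results of this same comparison, so that the difference between genotypes is given for them as values and folds without a p-value. Bulk RNA-seq libraries were compared between 5 controls labelled WT and 5 embryos labelled NCC Fgfr2 KO with the genotype *Wnt1-Cre; Fgfr2fl/fl*. *Wnt1-Cre* recombines the floxed *Fgfr2* allele in neural crest cells and in the frontal bone and fontanelle mesenchyme they form, and leaves the allele intact in cells of other origin such as endothelium and blood. The labels do not give the Cre or floxed alleles of the controls, and although the study describes littermate pairs, they do not tie any 2 libraries to a litter, so that spreads and p-values describe only the variation among these libraries.

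SCUBE proteins are secreted glycoproteins named for a signal peptide, a CUB domain and EGF-like repeats, and they can also be held at the cell surface. SCUBE2 takes lipid-modified hedgehog ligands from the transporter DISP1 and helps to release them from the producing cell, and it also acts as a coreceptor for the VEGF receptor KDR in endothelium. SCUBE1 and SCUBE3 bind receptors of the BMP and TGFβ families, and SCUBE3 is known for a role in skeletal growth. In the skull, hedgehog and BMP signals are active in sutures and at osteogenic fronts, the bone edges that border the fontanelle.

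Estimated counts summed to between 20774667 and 28515434 per library. The targeted gene, *Fgfr2*, was read first: it was at 200.2, 234.6, 175.8, 195.4 and 191.6 CPM (counts scaled to the library total, TMM-normalized) in control replicates 1 to 5 and at 299.2, 273.4, 324.8, 338.3 and 356.7 CPM in mutant replicates 1 to 5. These totals go against the genotype label. The paper describes the floxed allele as giving a functionally null receptor, and a gene-level count sums reads of recombined and intact alleles. *Fgfr2* also shares 314 exon bases with *Ctbp2* on the same strand. The libraries are therefore named by label, as control-labelled or mutant-labelled. Over all genes, 3 of 16267 tested, or 0.0184%, passed an adjusted p-value under 0.05 (edgeR's quasi-likelihood test, Benjamini-Hochberg adjustment), and *Scube2*, which this contrast chose, is 1 of them, so that nothing is read from its call. *Fgfr2*, at a log2FC of 0.67, is another of the 3, with an adjusted p-value of 0.0487 in edgeR, and of 0.152 with library size only. At an unadjusted p-value under 0.05, 3.68% of genes were higher and 3.82% lower in mutant-labelled libraries. DESeq2's Wald test, run as an alternative, passed 95 of the 17658 genes to which it gave an adjusted p-value, or 0.538%.

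The 3 genes lie on 3 chromosomes (GRCm38, GENCODE M21). *Scube1* spans chr15:83604999-83725021 on the minus strand, *Scube2* spans chr7:109798676-109865679 on the minus strand and *Scube3* spans chr17:28142141-28174854 on the plus strand. *Scube2* lies 20.3 Mb from *Fgfr2* on the same chromosome. *Scube1* and *Scube2* share no exon base with another annotated gene, while *Scube3* shares 198 exon bases with AC126937.2 on the opposite strand. The use of strand in counting was not given in the sources used here, and reads in those bases cannot be told apart.

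RefSeq promoter windows (GRCm38.p6), from 250 bases before to 50 after the annotated start, were found for all 3 genes and are shown because the family members differed in how far their levels separated the genotypes. Capitals mark GGGCGG, the core of a GC box, or its reverse complement CCGCCC, and each sequence runs 5′ to 3′ on the strand of its gene. The windows are chr15:83724990-83725289 (minus strand) for *Scube1*, chr7:109865630-109865929 (minus strand) for *Scube2* and chr17:28142059-28142358 (plus strand) for *Scube3*.
Scube1: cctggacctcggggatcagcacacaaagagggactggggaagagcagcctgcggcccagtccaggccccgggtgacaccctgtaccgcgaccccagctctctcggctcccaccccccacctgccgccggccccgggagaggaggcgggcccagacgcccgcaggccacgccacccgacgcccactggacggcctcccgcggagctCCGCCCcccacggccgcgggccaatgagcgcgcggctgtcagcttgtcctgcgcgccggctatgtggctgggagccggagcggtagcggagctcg
Scube2: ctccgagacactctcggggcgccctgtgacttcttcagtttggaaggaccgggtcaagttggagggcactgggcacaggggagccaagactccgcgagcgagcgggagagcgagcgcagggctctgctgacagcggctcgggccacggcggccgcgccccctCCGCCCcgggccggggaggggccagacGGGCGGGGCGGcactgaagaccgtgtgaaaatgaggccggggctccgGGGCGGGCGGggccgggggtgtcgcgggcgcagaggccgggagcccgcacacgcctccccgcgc
Scube3: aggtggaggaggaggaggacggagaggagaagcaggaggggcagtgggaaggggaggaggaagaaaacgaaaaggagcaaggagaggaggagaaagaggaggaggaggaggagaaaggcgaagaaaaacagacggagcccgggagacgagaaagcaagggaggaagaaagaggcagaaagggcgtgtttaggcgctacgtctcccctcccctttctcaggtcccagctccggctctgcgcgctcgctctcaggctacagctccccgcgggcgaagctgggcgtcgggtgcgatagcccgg
The *Scube2* window held GGGCGG 5 times on the 2 strands together, with overlapping matches counted, against 1 in *Scube1* and 0 in *Scube3*. At least 1 match is present in 35.7% of the 32851 RefSeq windows of this length. GC content was 75.0% in *Scube1*, 75.3% in *Scube2* and 62.0% in *Scube3*, against a median of 52.7% over all windows. The GLI motif GACCACCCA, searched on both strands and held by 0.253% of windows, and the TATA motif TATAAA, held by 13.6%, were in none of the 3 windows. CANNTG, the E-box read by bHLH factors such as SCX, was found once in *Scube1* and not in the other two, against 72.3% of all windows. The matches are descriptions of letters in these windows and carry no information on binding.

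*Scube2* was the member with the largest difference between labels. It was at 8.23, 9.19, 6.93, 6.13 and 7.61 CPM in control-labelled replicates 1 to 5 and at 17.0, 11.6, 15.4, 16.6 and 16.0 CPM in mutant-labelled replicates 1 to 5. Every mutant-labelled library lay above every control-labelled one, and mutant-labelled replicate 2 stood below the other 4 of its group. The means were 7.62 ± 1.18 and 15.3 ± 2.19 CPM (mean ± SD of 5 libraries per label, as for all means below), a fold of 2.01 and a log2 fold change (log2FC) of 1.01 with a standard error of 0.130. The background for this is that 0.781% of all genes tested had the mutant-labelled libraries all above the control-labelled ones and 0.701% all below, and nothing is read from it since this contrast chose the gene. The values rest on 150 to 391 counts per library. In bulk tissue, more cells that express a gene and more RNA per cell cannot be told apart.

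*Scube3*, the most abundant member, was at 55.7, 57.1, 42.6, 43.2 and 45.1 CPM in control-labelled replicates 1 to 5 and at 53.7, 50.6, 73.8, 61.3 and 55.4 CPM in mutant-labelled replicates 1 to 5. The groups overlapped, and mutant-labelled replicate 3 was the highest of the 10 libraries. Means were 48.7 ± 7.08 and 59.0 ± 9.15 CPM, with a log2FC of 0.27 (standard error 0.117), and the mutant-labelled library was the higher one in 19 of 25 pairings of a mutant-labelled with a control-labelled library.

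*Scube1* was close to level between the labels. Its values were 17.8, 19.1, 15.1, 14.5 and 16.9 CPM in control-labelled replicates 1 to 5 and 20.7, 19.6, 19.1, 14.9 and 16.3 CPM in mutant-labelled replicates 1 to 5. The mean went from 16.7 ± 1.89 to 18.1 ± 2.42 CPM, a log2FC of 0.12 (standard error 0.105), with the mutant-labelled library higher in 18 of 25 pairings. The spread among libraries of 1 label exceeded that difference, and its sign turned, to −0.12, when a score of osteoblast genes was added to the fit.

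**Figure D1:**
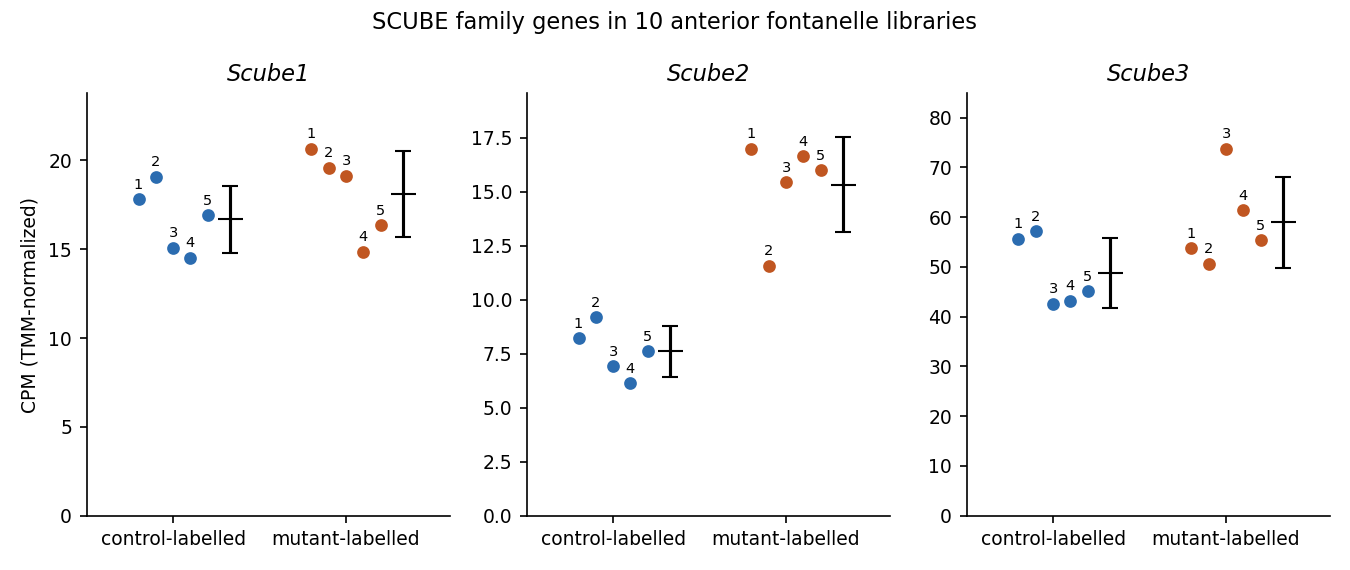
CPM (TMM-normalized) of *Scube1*, *Scube2* and *Scube3* in each library, with replicate numbers above the points and the mean ± SD of each group as a black bar. The *Scube2* points of the mutant-labelled libraries, at 11.6 to 17.0 CPM, all lie above those of the control-labelled libraries, at 6.13 to 9.19 CPM, while the points of the other two genes overlap.

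The composition of the family followed from these levels. *Scube2* made up 9.60% to 10.9% of the summed family CPM in control-labelled libraries (mean 10.4% ± 0.566) and 14.1% to 18.6% in mutant-labelled libraries (16.6% ± 2.23). *Scube3* held the largest share in every library, at 66.7% ± 1.36 and 63.6% ± 3.62, and *Scube1* held 22.9% ± 0.965 and 19.8% ± 3.38. The shares were tighter among control-labelled libraries for all 3 genes. The summed level ranged from 63.9 to 85.4 CPM for the control label and from 81.8 to 108.4 CPM for the mutant label, so that the family sums of the groups overlapped.

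**Figure D2:**
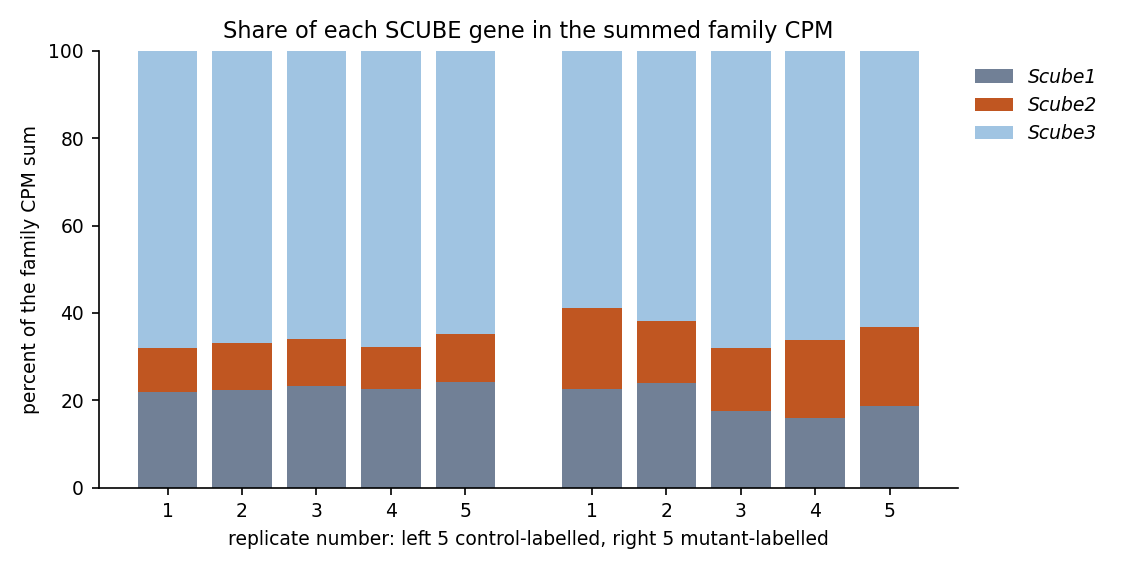
Stacked bars of the percent of the summed family CPM taken by each SCUBE gene, 1 bar per library, with control-labelled libraries on the left and mutant-labelled ones on the right. The *Scube2* band is 9.60% to 10.9% wide on the left and 14.1% to 18.6% wide on the right.

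Levels of the members were compared with each other per kilobase of the union of annotated exons, which is 9829 bases for *Scube1*, 4153 for *Scube2* and 8844 for *Scube3*. *Scube3* was highest, at 5.51 ± 0.801 CPM per kilobase for the control label and 6.67 ± 1.03 for the mutant label. *Scube2* was at 1.83 ± 0.283 and 3.69 ± 0.526, and *Scube1* at 1.70 ± 0.192 and 1.84 ± 0.247. *Scube3* exceeded *Scube1* by 1.77 log2 units of level per kilobase, in 10 of 10 libraries. *Scube3* exceeded *Scube2* by 1.59 in the control-labelled libraries, in 5 of 5, and by 0.85 in the mutant-labelled ones, again in 5 of 5. The members were chosen on values of both labels, so that their order is given as a description without a test. *Scube2* against *Scube1* depended on the length used and on the label. With the exon union *Scube2* was above *Scube1* by 0.11 log2 units in the control-labelled libraries and by 1.00 in the mutant-labelled ones. With the longest annotated transcript (5840 bases for *Scube1* and 3571 for *Scube2*) the difference was −0.43 in the control-labelled libraries. *Scube1* and *Scube2* therefore have no settled order in the control-labelled tissue, while *Scube3* was above both in each of the 10 libraries with either length. On the scale of CPM per kilobase, 33.9% of 14234 protein-coding genes tested lay below *Scube1*, 35.9% below *Scube2* and 66.8% below *Scube3* for the control label. For the mutant label these were 35.6%, 55.0% and 72.1%.

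Library-to-library variation was examined after each gene was centred on its group mean, so that the genotype difference does not enter. Over the 10 libraries, the deviations of *Scube2* and *Scube3* had a Pearson r of 0.63. For *Scube1* the order of the libraries ran with that of the other two in the control label and not in the mutant label, so that no r over both labels is given for it. In the control-labelled libraries *Scube1* and *Scube2* ranked the libraries alike, from replicate 4 as the lowest through 3, 5 and 1 to replicate 2 as the highest. *Scube3* was also highest there in replicates 2 and 1, and lowest in replicate 3. In the mutant-labelled libraries *Scube2* and *Scube3* were lowest in replicate 2, where *Scube1* was second highest, and *Scube3* was second lowest in replicate 1, where *Scube1* was highest. These are descriptions over few libraries that share dissection and depth, and the difference in order between the labels was not tested.

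*Scube2* was then related to connective tissue genes. A tendon and ligament score was formed as the mean of 13 genes, including the transcription factors *Scx* and *Mkx*, of log2 CPM centred on each gene's mean over the libraries. The score was −0.18, 0.27, −0.19, −0.30 and −0.26 in control-labelled replicates 1 to 5 and 0.24, −0.10, 0.12, 0.12 and 0.27 in mutant-labelled replicates 1 to 5. Within the labels, the library with the highest *Scube2* of the control label, replicate 2, also had the highest score, and the library with the lowest *Scube2* of the mutant label, replicate 2, had the lowest score. The group-centred Pearson r was 0.82 and Spearman's rho 0.85 over 10 libraries. These 2 libraries lie farthest from the median once the score is centred on its label mean, and without them r was 0.47 and rho 0.52 over 8 libraries. Of the score's genes, *Thbs4* was at 25.0 CPM in control-labelled replicate 2 against 1.01 to 2.41 CPM in the other control-labelled libraries, whereas *Tnmd* was at 33.5 CPM there, its lowest value of the 10 libraries. Skeletal muscle markers summed to 713 CPM in that library against 18.3 to 140.3 CPM in the other 4, and their part in its score was not tested. Without *Thbs4* the score of that library was 0.046, still the highest of its label, and r was 0.94 and rho 0.77 over 10 libraries. Without *Thbs4* and those 2 libraries r was 0.77 and rho 0.43 over 8, so that the strength of the relation depends on both choices. The other two members ran with the score in the control-labelled libraries too, where all 3 genes were highest in replicate 2. In the mutant-labelled libraries *Scube1* was second highest in replicate 2, the library with the lowest score, and *Scube3* was lowest there but highest in replicate 3, whose score was below those of replicates 1 and 5. Whether the members differ in their relation to the score was not tested. With a score of 17 fibrous matrix genes in its place, r for *Scube2* was 0.65. A score of 16 osteoblast genes was 0.14, −0.016, 0.20, 0.32 and 0.10 in control-labelled replicates 1 to 5 and −0.22, −0.27, −0.040, −0.22 and 0.0034 in mutant-labelled replicates 1 to 5. Its relation to *Scube2* ran in opposite directions in the labels: replicate 4, with the least *Scube2* of the control-labelled libraries, had their highest osteoblast score and replicate 2, with the most, their lowest, whereas replicate 2, with the least *Scube2* of the mutant-labelled libraries, also had their lowest osteoblast score. One r over both labels, which was −0.30, therefore describes neither, and the difference between the labels was not tested.

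**Figure D3:**
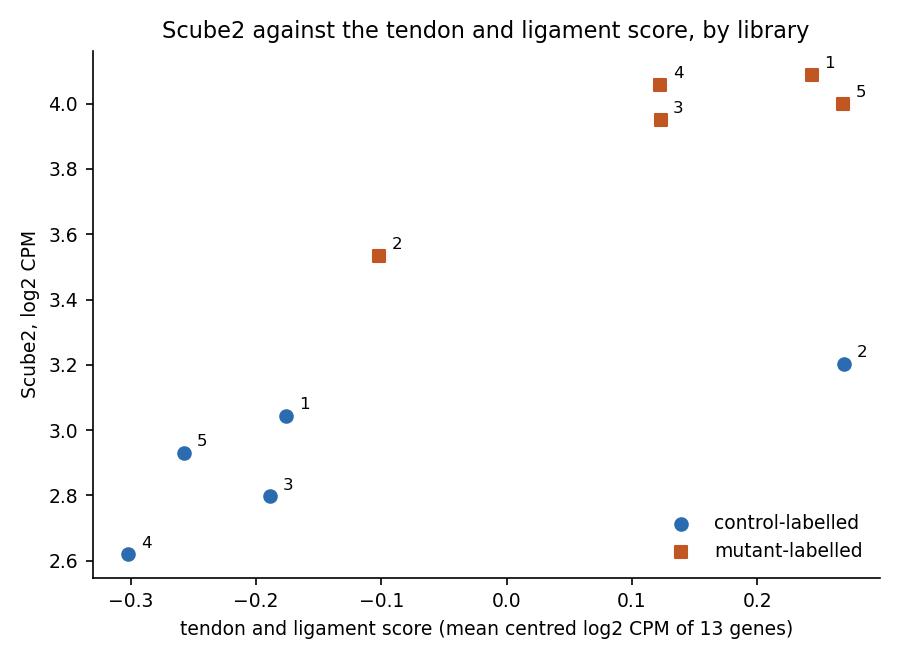
*Scube2* in log2 CPM against the tendon and ligament score, 1 point per library, with replicate numbers beside the points. Control-labelled replicate 2, at a score of 0.27, lies among the mutant-labelled libraries on the score axis but at 3.20 on the *Scube2* axis, below all mutant-labelled libraries (3.53 to 4.09).

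Single genes of the tendon and ligament list followed *Scube2* unequally. *Thbs2*, a thrombospondin of the matrix, had a group-centred r of 0.86 with *Scube2*, *Chodl* (chondrolectin) 0.84, *Kera* (keratocan, a small leucine-rich proteoglycan) 0.82 and *Col12a1* (a collagen of dense connective tissue) 0.80. *Tnmd*, the tendon gene tenomodulin, was at −0.016, *Fmod* (fibromodulin) at −0.16 and *Comp* (cartilage oligomeric matrix protein) at −0.49. Among the 11 genes of the list with a mean of at least 5 CPM, which leaves out *Kera* and *Comp*, 2 had an r above 0.8, against 1.13% of all 11014 genes of that level, and the median was 0.59 against −0.025 for all of these genes. The median was 0.64 over the 17 fibrous matrix genes, led by *Pdgfra*, a receptor of fibroblasts, at 0.84, and it was 0.47 over the 14 hedgehog genes of that level. Among 5 ectocranial mesenchyme genes *Fgf18*, an FGF ligand, reached 0.90 and *Fgf9* was at −0.53. The osteoblast list had a median of −0.075 over both labels. Since the osteoblast score ran with *Scube2* in opposite directions in the labels, nothing is read from this median.

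The same lists were compared between the labels. Of 13 tendon and ligament genes, 6 were higher and 1 lower for the mutant label at an unadjusted p-value under 0.05 (edgeR). The shares over all genes are 3.68% and 3.82%. None of the 13 passed the adjusted threshold in edgeR, and 3 did in DESeq2, against 0.538% of all genes. The list's median log2FC was 0.21, against 0.00073 over all genes tested. *Chodl* was at 14.9, 16.3, 14.3, 10.3 and 15.3 CPM in control-labelled replicates 1 to 5 and at 25.4, 16.8, 31.8, 31.0 and 32.6 CPM in mutant-labelled replicates 1 to 5. As with *Scube2*, the groups did not overlap and mutant-labelled replicate 2 was the lowest of its group. The log2FC of *Chodl* was 0.95 (standard error 0.177), and its adjusted p-value in edgeR was 0.184. *Matn4*, a matrilin of the extracellular matrix, and *Tnmd* were also separate between the groups, with log2FCs of 0.64 and 0.58, so that 3 of 13 genes had all mutant-labelled libraries on top, against the 0.781% of all genes given above. *Scx*, at 0.35, *Mkx*, at 0.31, and *Thbs2*, at 0.28, were higher with overlapping groups, and *Tnc*, the matrix protein tenascin C, was lower at −0.25. *Fmod* (0.16), *Col12a1* (0.16), *Comp* (0.21), *Egr1* (−0.22, a transcription factor of tendon and of many other cells), *Kera* (−0.14) and *Thbs4* (−0.56) did not pass an unadjusted p-value of 0.05. Without control-labelled replicate 2, the library with its high value, the log2FC of *Thbs4* was 1.31. When the tendon and ligament score was added to the fit, the log2FC of *Scube2* was 0.76 in place of 1.01.

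Of 17 fibrous matrix genes, 1 was at an unadjusted p-value under 0.05 (edgeR), *Ogn* (osteoglycin), higher by a log2FC of 0.24. Of all genes, 3.68% were higher at that threshold. None of the 17 passed the adjusted threshold in edgeR or DESeq2. Among ectocranial mesenchyme genes, *Fgf18*, at 0.62, and *C1qtnf3*, a secreted C1q-related protein, at 0.36, were higher at an unadjusted p-value under 0.05, while *Fgf9* (0.30), *Igfbp3* (0.18) and *Fgf2* (0.041) were not, and none of the 5 passed the adjusted threshold with either tool. All 16 osteoblast genes had a log2FC below 0, against 49.7% of all genes, with a median of −0.23. At an unadjusted p-value under 0.05 in edgeR 9 were lower, against 3.82% of all genes. None of them passed the adjusted threshold in edgeR and 3 did in DESeq2, against 0.538%. The osteoblast score, beside which *Scube2* was at a log2FC of 0.85, averaged 0.15 for the control label and −0.15 for the mutant label.

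Markers of other tissues differed among libraries. Summed neuron markers ranged from 52.8 to 139.2 CPM for the control label and from 56.7 to 421.0 CPM for the mutant label, and the highest value was that of mutant-labelled replicate 2, the library with the lowest *Scube2* of its group. Mutant-labelled replicates 4, at 176.0 CPM, and 1, at 153.6 CPM, also lay above every control-labelled library. All 6 neuron genes had a log2FC above 0, against 50.3% of all genes, with a median of 0.87. At an unadjusted p-value under 0.05 (edgeR) 1 of them was higher, the neurofilament gene *Nefl* (1.92), against 3.68% of all genes. Without mutant-labelled replicate 2 the median was 0.23, with 4 of 6 genes above 0. Skeletal muscle markers ran from 18.3 to 713 CPM and from 17.4 to 708 CPM, with the highest values in control-labelled replicate 2 and mutant-labelled replicate 1, which had the highest *Scube2* of their groups. All 6 genes of both lists were above the filter. Hypodermal and adipocyte markers reached 200.7 CPM in mutant-labelled replicate 1 against 64.3 to 112.2 CPM in the other mutant-labelled libraries, with the adipocyte genes *Adipoq* and *Plin1* left out by the filter. Of 8 chondrocyte genes, 3 were higher and 0 lower for the mutant label at an unadjusted p-value under 0.05 (edgeR). The shares over all genes are 3.68% and 3.82%. None of the 8 passed the adjusted threshold in edgeR and 2 did in DESeq2, against 0.538% of all genes. *Col2a1*, the main fibrillar collagen of cartilage, was at 47.3 to 68.5 CPM for the control label and 70.7 to 153.1 CPM for the mutant label, a log2FC of 0.88, and *Col9a2*, a collagen of the same fibrils, was at 24.7 to 26.8 and 27.7 to 38.1 CPM, a log2FC of 0.37. Both genes had all mutant-labelled libraries above all control-labelled ones, against 0.781% of all genes. The summed chondrocyte markers, at 1347 to 1674 and 1257 to 1671 CPM, consist mostly of *Col11a2* and overlapped. Meningeal markers summed to 279.6 to 379.9 and 298.5 to 424.0 CPM, and endothelial markers to 431 to 551 and 451 to 554 CPM. Erythroid markers summed to 742 to 1907 and 652 to 1274 CPM, macrophage markers to 350 to 470 and 313 to 391 CPM, and epidermal markers, without *Krt14*, which the filter left out, to 5.39 to 11.9 and 4.58 to 9.10 CPM. The part of these tissues in the *Scube2* values was not tested, and leaving out any 1 library left the log2FC of *Scube2* between 0.94 and 1.10.

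The hedgehog pathway, on whose ligands SCUBE2 acts, was described by 17 genes, of which 16 were tested. *Shh* had 0 to 15 counts per library and was left out by the filter. Of the other ligands, *Ihh*, made by maturing cartilage and by osteogenic fronts, averaged 7.94 ± 1.49 CPM for the control label against 6.25 ± 1.27 CPM for the mutant label, with a log2FC of −0.35, and *Dhh* was close to the filter, at 1.28 ± 0.235 and 1.14 ± 0.702 CPM. *Hhat*, the enzyme that acylates the ligands, and *Disp1*, the transporter that hands them to SCUBE2, had log2FCs of −0.00058 and 0.033. None of these genes passed an unadjusted p-value of 0.05.

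The log2FCs of the list were split evenly, with 8 above 0 and 8 below. *Ptch1*, the receptor and a target gene of the pathway, was at 127.4, 131.3, 126.5, 114.9 and 114.0 CPM in control-labelled replicates 1 to 5 and at 99.9, 90.4, 109.9, 87.2 and 109.6 CPM in mutant-labelled replicates 1 to 5. All mutant-labelled libraries were below all control-labelled ones, as for 0.701% of all genes. The log2FC of *Ptch1* was −0.31 (standard error 0.076), with an adjusted p-value of 0.336 in edgeR and one of 0.0493 in DESeq2. *Gli1*, a transcription factor that is also a target of the pathway, was at −0.28, the ligand-binding antagonist *Hhip* at −0.45 and the GLI regulator *Kif7* at −0.17, each with overlapping groups. *Cdon*, a coreceptor, was higher at 0.27, and the coreceptors *Boc* (0.079) and *Gas1* (0.16), the signal transducer *Smo* (0.021), the transcription factors *Gli2* (−0.072) and *Gli3* (0.16) and the inhibitor *Sufu* (0.051) did not pass an unadjusted p-value of 0.05. In all, 4 of 16 were lower and 1 higher at an unadjusted p-value under 0.05, against 3.82% and 3.68% of all genes. None passed the adjusted threshold in edgeR and 1 did in DESeq2, against 0.538%. The median log2FC of the list was 0.010.

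**Figure D4:**
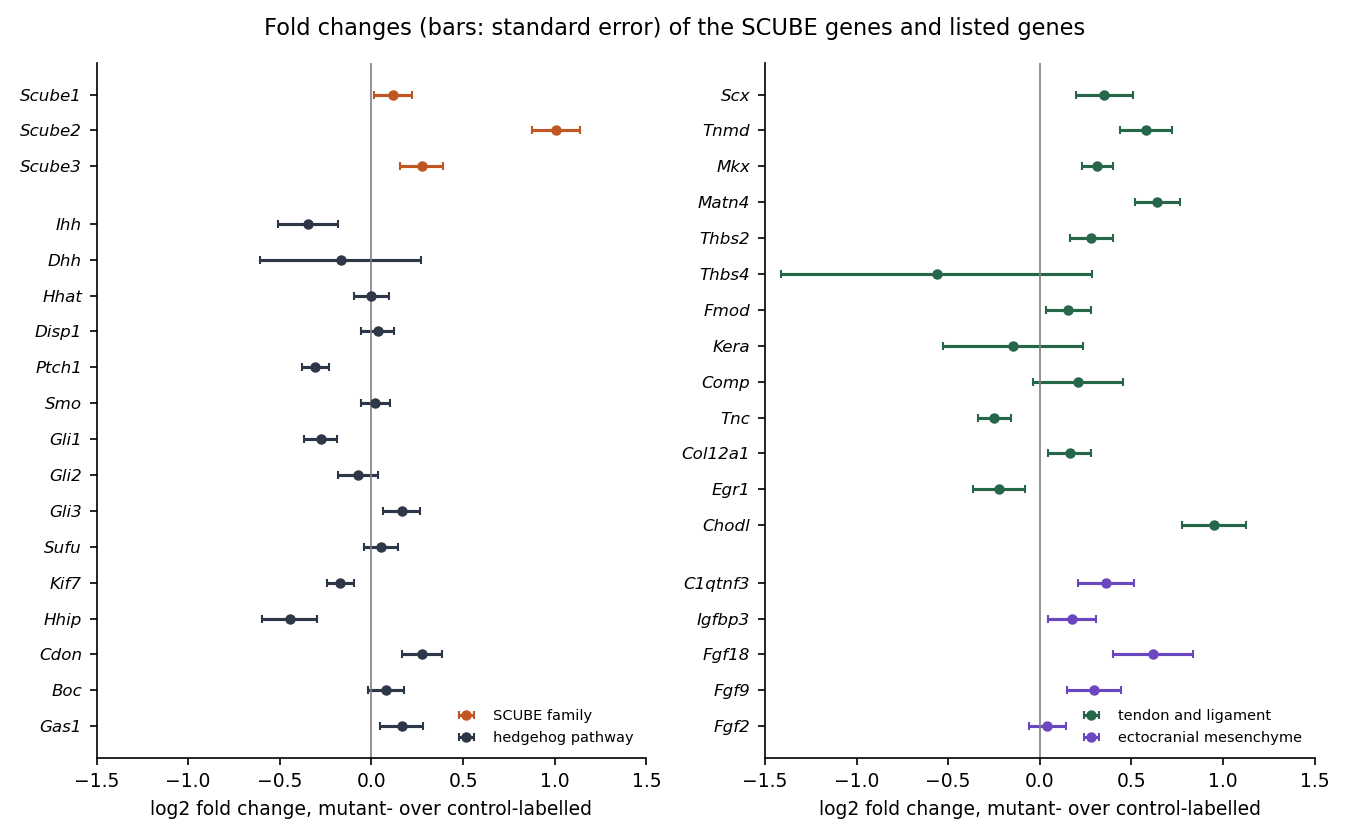
Log2FC of mutant-labelled over control-labelled libraries with its standard error, for the SCUBE genes and the hedgehog genes named here (left) and the tendon and ligament and ectocranial mesenchyme genes (right). *Scube2* lies at 1.01 and *Chodl* at 0.95, while *Ptch1* (−0.31), *Gli1* (−0.28) and *Hhip* (−0.45) lie below 0.

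Within the labels, all 16 hedgehog genes had a positive group-centred r with *Scube2*, from 0.047 for *Dhh* to 0.88 for *Gli2*, and so did all 16 with *Scube3*, from 0.19 for *Dhh* to 0.81 for *Boc*. *Ptch1*, lower in the mutant-labelled libraries where *Scube2* was higher, had an r of 0.44 with *Scube2*. *Gli2* was lowest, at 32.8 CPM, in mutant-labelled replicate 2, again the library with the least *Scube2* of its group. With *Scube1*, r was positive for 15 of 16. Over the 11014 genes with a mean of at least 5 CPM, r was positive for 49.5% with *Scube1*, 48.0% with *Scube2* and 53.4% with *Scube3*. Other lists had like counts, 16 of 17 fibrous matrix genes and 6 of 6 skeletal muscle genes with *Scube2*, and nothing particular to hedgehog genes is read from them. Correlations are given over 10 libraries as a description only.

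The pathways of the other known SCUBE partners, BMP and TGFβ for SCUBE1 and SCUBE3 and VEGF for SCUBE2, were described by 25 genes. Of these, 2 were lower and 0 higher at an unadjusted p-value under 0.05 (edgeR), against 3.82% and 3.68% of all genes. None of the 25 passed the adjusted threshold in edgeR or DESeq2. *Smad9*, a BMP effector, went from 15.3 ± 0.889 to 12.7 ± 2.31 CPM, a log2FC of −0.27, and the ligand *Tgfb1* from 138.0 ± 10.7 to 114.9 ± 11.4 CPM, a log2FC of −0.26. The median log2FC of the list was −0.043. The group-centred r was highest for *Smad1*, another BMP effector, with *Scube1* (0.91), for *Tgfb2*, a TGFβ ligand, with *Scube3* (0.88) and for *Bmp5*, a BMP ligand, with *Scube2* (0.73). It was lowest for *Tgfb1* with *Scube1* (−0.51), for the receptor *Tgfbr1* with *Scube3* (−0.59) and for *Id2*, a target of BMP signals, with *Scube2* (−0.72). The medians over the 25 genes were 0.21 with *Scube1*, 0.14 with *Scube2* and 0.30 with *Scube3*.

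Over 11014 genes with a mean of at least 5 CPM, the genes whose group-centred log2 CPM over the 10 libraries was most like that of each member were listed. For *Scube2* these were *Thbs1* (r = 0.97), *Brca2* (0.95), *Zfp521* (0.93), *Racgap1* (0.93) and *Cachd1* (0.92). *Thbs1*, another matrix thrombospondin, was at 164.2 to 255.1 CPM in the control-labelled libraries and at 314.0, 198.3, 295.6, 295.9 and 280.1 CPM in mutant-labelled replicates 1 to 5. Its groups overlapped, and among mutant-labelled libraries it was lowest in replicate 2 and highest in replicate 1, as *Scube2* was. For *Scube1* the list was *AW554918* (0.95), *Castor1* (0.94), *Zfp746* (0.93), *Map1a* (0.91) and *Pag1* (0.91), and for *Scube3* *Wfikkn2* (0.96), *Xxylt1* (0.91), *Fzd9* (0.91) and *Specc1l* (0.89). No gene was on 2 of the 3 lists. An r above 0.8 was found for 59 genes with *Scube1*, 125 with *Scube2* and 88 with *Scube3*, and the highest of so many values from 10 libraries is given as a rank only.

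Genes within 500 kb of each member were read for changes at the locus. Near *Scube2*, 17 genes were tested, with log2FCs from −1.27 to 0.34 and a median of −0.046. The nearest tested genes were *Nrip3*, 16.7 kb away at a log2FC of 0.22 and under 1 CPM, and *Dennd5a*, 28.1 kb away at 0.011 and 102 CPM. *Trim66*, 290.5 kb away, was lower at −1.27 with an unadjusted p-value of 0.0354, and at −0.70 without control-labelled replicate 3, where it was at 21.2 CPM against 3.27 to 10.6 CPM in the other control-labelled libraries. Near *Scube1*, 1 of 19 genes was higher and 3 were lower at an unadjusted p-value under 0.05, against 3.68% and 3.82% of all genes. They were *Mpped1* (2.04), *Cyb5r3* (−0.17), *Arfgap3* (−0.15) and *Gm5417* (−0.64). The nearest gene on the other side from *Mpped1*, *Ttll12*, was at 0.037. *Mpped1* was at 70.2 CPM in mutant-labelled replicate 2 and at 1.49 to 14.7 CPM in the other mutant-labelled libraries, and its log2FC was 0.65 without that library. Near *Scube3*, 0 of 20 genes passed an unadjusted p-value of 0.05, among them *C230013L11Rik*, which overlaps *Scube3* on the opposite strand, at −0.13. The nearest tested genes that do not overlap *Scube3*, *Zfp523* and *Tcp11*, were at −0.071 and 0.22. No neighbour of any member passed the adjusted threshold in edgeR or in DESeq2.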

How the data were processed

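RNA of the AF was sequenced with a stranded kit, in 5 libraries labelled WT and 5 labelled NCC Fgfr2 KO (genotype label *Wnt1-Cre; Fgfr2fl/fl*). The authors deposited estimated counts per gene, not scaled between libraries, of which 66.4% were whole numbers. The submitters' processing notes name Partek and mm10, and the aligner, counter and strand setting are not given in the sources used here. Positions were matched to GENCODE M21 by symbol (22533 matched, 22296 at the same start, with the deposited stop 1 base past the annotated end). Counts were rounded and analysed in R 4.3.3 with edgeR 4.0.16: 16267 genes passed its expression filter and 6813 were left out, TMM normalization was used, and the quasi-likelihood test was fitted to all genes and 10 libraries without covariates, with Benjamini-Hochberg adjustment over all genes tested. CPM include ribosomal RNA (CT010467.1), which made up 18.6% to 33.5% of a library. Each standard error of a log2FC is the absolute log2FC divided by the square root of the F statistic of that test. For the members it is a description only. log2 CPM used a prior count of 0.5. DESeq2 1.42.0 was an alternative. The fitting code was tested on simulated data.

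The members, the gene lists and the comparisons were chosen with earlier results of these data known, and the members' genotype difference is a description. Genes named are the members, *Fgfr2*, the hedgehog, tendon and ligament and ectocranial lists, genes of the fibrous matrix and BMP, TGFβ and VEGF lists at an unadjusted p-value under 0.05, the 5 genes most like each member, neighbours at that threshold and the nearest tested neighbour on each side. Of these, 2 genes are not reported here, though list counts include them. Others (*Pdgfra*, *Smad1*, *Tgfb2*, *Tgfbr1*, *Id2*, *Bmp5*, *Col2a1*, *Col9a2*, *Nefl*, *C230013L11Rik*) were named after their values were seen. Lists are described by counts and medians with no set test. Alternatives were other normalizations and filters, a replicate block, covariates (*Xist* or a gene score) and leaving out each library. Markers of meninges, endothelium, epidermis, erythroid cells and macrophages were also summed.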

Additional observations from a re-analysis of the deposited data

Results flagged for a closer look

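Each label's 5 libraries were searched, for 69 values, for a library whose gap to its nearest neighbour exceeded 0.71 of the group's range, and 10 of 138 groups had one, where chance gives about 1 in 20. *Scube2* in mutant-labelled replicate 2, at 11.6 CPM, stood below the other mutant-labelled libraries at 15.4 to 17.0 CPM. *Racgap1*, a cytokinesis gene, was at 19.0 CPM in the same library against 22.5 to 23.0 CPM in the others, and *Mpped1* was at 70.2 CPM there against 1.49 to 14.7 CPM. *Gli1* was at 48.7 CPM in mutant-labelled replicate 3 against 40.9 to 42.4 CPM. In control-labelled replicate 2, the tendon and ligament score was 0.27 against −0.30 to −0.18, *Thbs4* was at 25.0 CPM against 1.01 to 2.41 CPM, and *Smad9* at 16.8 CPM against 14.6 to 15.2 CPM. *Cdon* was at 110.7 CPM in control-labelled replicate 1 against 84.3 to 90.2 CPM, *Ttll12* at 25.6 CPM in control-labelled replicate 3 against 21.9 to 22.7 CPM, and *Arfgap3* at 35.2 CPM in control-labelled replicate 5 against 39.9 to 41.1 CPM.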

How the results depend on the processing

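*Scube2* kept a log2 fold change above 0 under every alternative, and moved by more than its spread between libraries only with the tendon and ligament score as a covariate, to 0.76. Leaving out 1 library gave 0.07 to 0.19 for *Scube1*, 0.94 to 1.10 for *Scube2* and 0.19 to 0.35 for *Scube3*, and *Scube1* was at −0.12 with the osteoblast score. Genes called over the whole table were 3, and 1 with library size only, the replicate block, the *Xist* covariate or the tendon and ligament score, 0 with the osteoblast score, 95 with DESeq2's Wald test, 1219 at an unadjusted p-value under 0.05, and 1 to 6 without 1 library, with 6 without mutant-labelled replicate 2. Of 16 hedgehog genes tested, 0 were called, and 1 was with DESeq2, against 0.0184% and 0.538% of all genes. At an unadjusted p-value under 0.05, 1 was higher and 4 were lower, against 3.68% and 3.82%.

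The study describes littermate pairs, but no source used here says which libraries form one, and the replicate numbers gave no sign of pairing: group-centred correlations of same-numbered libraries were −0.211 to 0.139 and none matched best with its own number. With the replicate block, 1 gene was called and *Thbs4* (0.33) and *Kera* (0.021) changed sign. In the order per kilobase, the 5 control-labelled and the 5 mutant-labelled libraries gave 1.59 and 0.85 for *Scube3* over *Scube2* and 1.69 and 1.85 for *Scube3* over *Scube1*. For *Scube2* over *Scube1* they gave 0.11 and 1.00, and the longest transcript gave 0.019 over 10 libraries. The r of *Scube2* with the tendon and ligament score was 0.65 with the fibrous matrix list, 0.47 without the 2 extreme libraries, 0.94 without *Thbs4* in the score and 0.77 without both (alternatives chosen after the data were seen), and 0.77 to 0.86 without 1 library.

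Other sign changes were all in genes that passed no adjusted threshold, 17 of 50 named genes. They were, with the tendon and ligament score, *Disp1* −0.068, *Smo* −0.062, *Sufu* −0.038, *Boc* −0.11, *Gas1* −0.013, *Col12a1* −0.050, *Fgf2* −0.13 and *Dennd5a* −0.064. With the osteoblast score they were *Hhat* 0.16, *Comp* −0.22, *Mpped1* −0.34, *Nrip3* −1.77 and *Tcp11* −0.037, and with library size only *Disp1* −0.018, *Smo* −0.027, *Fgf2* −0.012 and *Dennd5a* −0.032. *Hhat* was at 0.0073 with DESeq2 size factors, 0.0042 with its Wald test, 0.0076 with at least 10 counts in every library and 0.0031 without the ribosomal RNA gene and *Lars2*. Leaving out 1 library gave *Dhh* −0.44 to 0.11, *Hhat* −0.038 to 0.057, *Disp1* −0.0090 to 0.12, *Smo* −0.030 to 0.085, *Gli2* −0.11 to 0.022, *Sufu* −0.00054 to 0.10, *Thbs4* −0.90 to 1.31, *Kera* −0.35 to 0.28, *Comp* −0.037 to 0.33, *Fgf2* −0.0020 to 0.11, *Nrip3* −0.067 to 0.47 and *Dennd5a* −0.0033 to 0.045. The causes were not tested. *Dhh* and *Nrip3* were near 1 CPM, while genes of higher level, such as *Smo* (112 CPM for the control label) and *Col12a1* (2779 CPM), changed sign too.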
